A study of Arabidopsis thaliana with 6 samples.

Results

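The 2 ATH1 arrays of the later array date, 1 of the eif3k mutant and 1 of wild-type, were compared with the 4 arrays of the first date, 2 of each genotype, out of 6 arrays in all. Members were taken from the labels, which tie replicate 3 of both genotypes to the later date and replicates 1 and 2 to the first. The values compared were log2 signals of 22746 probe sets, of which 14008 carry 1 gene name here. The date difference is the later date minus the first with genotype held in the model, so a positive value is a higher signal on the later date.

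All arrays measured total RNA of the aerial part of Columbia seedlings. The eif3k line is interrupted by T-DNA in intron 6 of AT4G33250, which encodes the k subunit of the initiation factor eIF3, and is 1 insertion line. Per the labels both genotypes on both dates were 11 days old, grown at 22 °C on plates with 1% sucrose and 0.8% agar. The day had 16 h of light, and harvest was 4 h into it. The study's methods instead describe continuous light for the mutant, and the sources used here do not settle this. Since each date held its own plants and its own arrays, the array date, the growth batch and the actual time of harvest cannot be told apart. Nothing in the sources says whether replicates 1 and 2 came from separate sowings, so p-values measure only the spread between these arrays.

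The circadian clock of Arabidopsis runs on transcription factors that peak at different times of day. CCA1 and LHY peak near dawn and repress evening genes, among them GI, several pseudo-response regulators and the evening complex, and many outputs such as starch turnover and cold-response genes follow this rhythm. Chloroplasts carry a small genome of their own for parts of the photosystems, the ATP synthase and the plastid ribosome, while most antenna proteins are encoded in the nucleus.

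Each later array differed more from the first-date arrays than those did among themselves. The later eif3k array differed at least 2-fold from the 2 first-date eif3k arrays in 1543 and 1278 probe sets, and the later wild-type array differed from the 2 first-date wild-type arrays in 900 and 985. Within the first date the same count was 305 between the eif3k arrays and 75 between the wild-type arrays. The 2 later arrays differed from each other in 859 probe sets, a number near the 900 to 1035 between the later wild-type array and each of the 4 first-date arrays. The median signal lay between 4.02 and 4.12 on all 6 arrays, and the lowest value, 2.25, was shared by 25.5% to 26.8% of probe sets. The 25S rRNA control was 8.13 on the later eif3k array and 12.85 on the later wild-type array, against 12.04 to 12.87 on the first date. The GAPDH 3′ control exceeded the 5′ control by 3.92 on the later eif3k array and 5.02 on the later wild-type array, against 4.09 to 4.18 on the first date. Thus each later array had a control value outside the range of the others, and the part of these controls in the results below was not tested.

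The labelled tissue was checked on its markers. RCA, the activase of the carbon-fixing enzyme Rubisco, was at 14.99 and 14.98 on the later date and between 14.88 and 15.06 on the first. Of 9 root marker probe sets, 4 were at the floor on every array, and the log2 of the summed linear signal of all 9 was 12.1 and 11.87 on the later date and 11.15 to 11.86 on the first. Among them PYK10, a β-glucosidase of roots and hypocotyls, was at 11.61 and 11.42 on the later date and 10.40 to 11.44 on the first. The floral list matched no probe set. eIF3k itself was at 7.52 in eif3k and 8.89 in wild-type on the later date, and at 6.81 and 6.62 in eif3k and 8.82 and 9.18 in wild-type on the first, so it was lower in the mutant on both dates.

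The first question was which transcripts differed between the dates in both genotypes. With limma, 51 probe sets were called higher on the later date and 25 lower, with a difference of 2-fold or more and an adjusted p under 0.05, which is 0.224% and 0.11% of those tested. All 51 and all 25 also had both later arrays outside the range of the 4 first-date arrays, which held for 10.6% of all probe sets upwards and 10.3% downwards. This is no separate support, since a call needs a large difference and a small spread on these same arrays. With no fold criterion 156 probe sets passed, and 3321 had an unadjusted p under 0.05. Among the calls, 23 higher and 11 lower probe sets have 1 gene name. When only the 13157 probe sets with a mean signal above 3 were fitted, 280 were called higher and 192 lower, 2.13% and 1.46% of them, and 72 of the 76 original calls were among these. Adjusted p-values below are over all probe sets unless stated, and a gene said to have missed the threshold missed it there. The calls rest on few arrays. Of the 76, 1 was left without eif3k replicate 1, 1 without eif3k replicate 2 and 0 without wild-type replicate 1 (2799 at an unadjusted p under 0.05). Without wild-type replicate 2, 8 were called, of which 6 were among the 76. A fit without 1 of the later arrays leaves 1 array on that date, so its number of calls is not used to judge how many of the 76 hold.

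A second count used no test. A probe set was counted as shared when each later array differed at least 2-fold from the mean of the first-date arrays of its own genotype, the same way in both genotypes, with both later arrays outside the range of all first-date arrays. By this rule 217 probe sets were higher on the later date and 154 lower, 0.954% and 0.677% of all. The shared higher sets were 29.2% of those at least 2-fold higher in eif3k and 46.8% of those in wild-type, and the shared lower sets 30.3% and 41.4%. 12 probe sets differed at least 2-fold in opposite ways in the 2 genotypes, against 382 in the same way. The median difference of the shared higher sets was 1.63 in eif3k and 1.65 in wild-type, and that of the shared lower sets was -1.82 in eif3k and -1.64 in wild-type. The largest shared difference was 6.35, at a probe set without a gene name here.

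The date differences of the 2 genotypes were correlated across probe sets with a mean signal above 3, with Pearson's r = 0.563 and Spearman's rho = 0.485. These are descriptions across genes, which are not independent replicates, and all arrays were normalized together. The 2 date differences have no array in common.

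**Figure D1:**
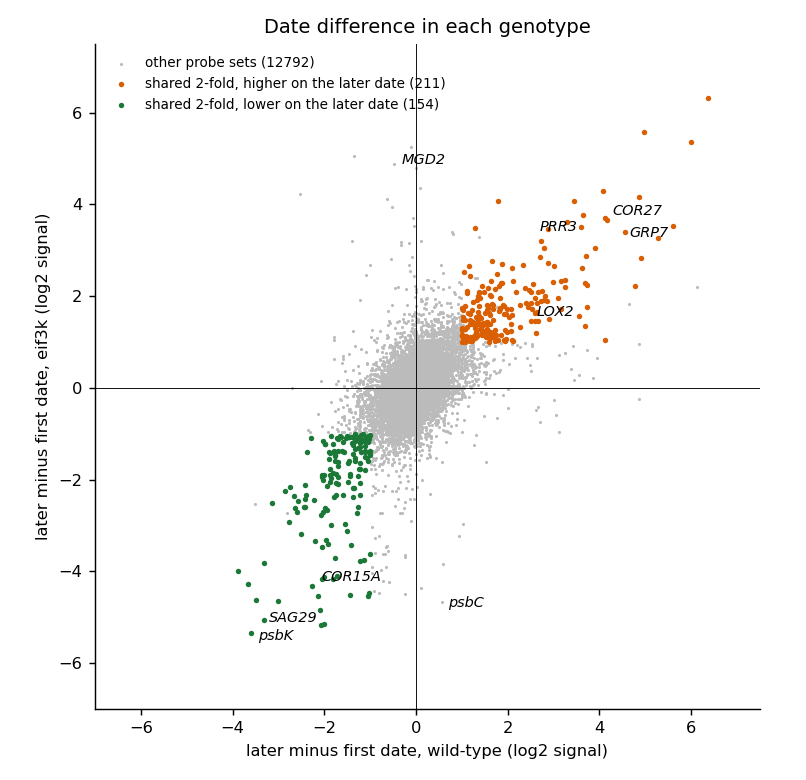
Date difference (later minus first, log2 signal) in wild-type on the x axis and in eif3k on the y axis, 1 point per probe set with a mean signal above 3. Orange points are the 211 shared higher and green points the 154 shared lower probe sets. GRP7 (4.56 in wild-type, 3.39 in eif3k) is high in both genotypes, though below the largest fitted difference of 6.35. psbK (-3.60 in wild-type, -5.35 in eif3k) has the lowest fitted difference, while MGD2 and psbC differ at least 2-fold in eif3k alone.

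Evening clock genes had the highest median of the 39 lists that held a probe set. The list of 14 evening-phased loci matched 5 probe sets, of which 2 were called higher (40%, against 0.224% of all) and 4 met the shared rule (80%, against 0.954%). Their median difference was 3.45, against 0 over all probe sets. PRR3, a pseudo-response regulator of the clock, had 6.03 in eif3k and 5.89 in wild-type on the later date, against 2.25, 2.28, 2.25 and 2.25 on the first. All 4 first-date arrays lay at or next to the floor, so the difference of 3.70 (standard error 0.04, limma adjusted p = 0.00339) is a lower bound. The floor also held the first-date spread near 0 (SD 0.01), so the standard error and the p-value may be too small. A probe set shared by AT3G46640 and AT5G59570, both listed as evening loci of the same small gene family, had 5.96 and 5.62 on the later date and 2.31 to 2.37 on the first. Its difference was 3.45, with a limma adjusted p of 0.0204, and its 2 loci cannot be told apart.

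GRP7, an RNA-binding protein that feeds back on its own transcript in the evening, had 10.95 in eif3k and 11.86 in wild-type on the later date, against 8.11 and 7.01 in eif3k and 7.52 and 7.08 in wild-type on the first. The groups did not overlap, and the means were 11.40 ± 0.64 (SD, n = 2) on the later date and 7.43 ± 0.51 (SD, n = 4) on the first. The difference of 3.98 is 15.7-fold, with a limma adjusted p of 0.107, so it missed the threshold over all probe sets and passed it among those with a mean signal above 3, at 0.0152. The set shared by AT1G68050 and 2 other loci had 6.94 and 7.88 on the later date, against 5.58, 6.27, 6.16 and 5.71 on the first, a difference of 1.48 that did not pass (adjusted p = 0.241). GI, which peaks before dusk, was the member that did not follow, at 5.19 and 5.25 on the later date and 5.19 to 6.08 on the first.

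COR27, a cold-regulated gene that acts in the evening clock, stood outside the lists and was among the calls. It had 5.91 in eif3k and 6.42 in wild-type on the later date and lay at the floor of 2.25 on all 4 first-date arrays. The difference of 3.91 (limma adjusted p = 0.022) is therefore again a lower bound, and its p-value may again be too small. CAT3, an evening-peaking catalase, had 12.56 and 11.72 on the later date and 11.71, 10.85, 10.78 and 10.57 on the first. Its difference of 1.16 met the shared rule and did not pass the test (adjusted p = 0.25).

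The morning list of 13 loci matched 3 probe sets, and none was called or met the shared rule. CCA1, the dawn MYB factor, had 8.84 in eif3k and 8.69 in wild-type on the later date, against 9.40 and 9.78 in eif3k and 10.40 and 10.40 in wild-type on the first. Both later values lay below every first-date value, by a mean of -1.23, and this did not pass the test (limma adjusted p = 0.221). LHY, its partner, had 9.20 in eif3k and 8.16 in wild-type on the later date, against 7.34 and 8.20 in eif3k and 8.39 and 8.76 in wild-type on the first. Its later arrays lay on opposite sides of their own genotype, by 1.43 in eif3k and -0.41 in wild-type. AT5G52660, a MYB-like gene of the same family, differed by -0.03.

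**Figure D2:**
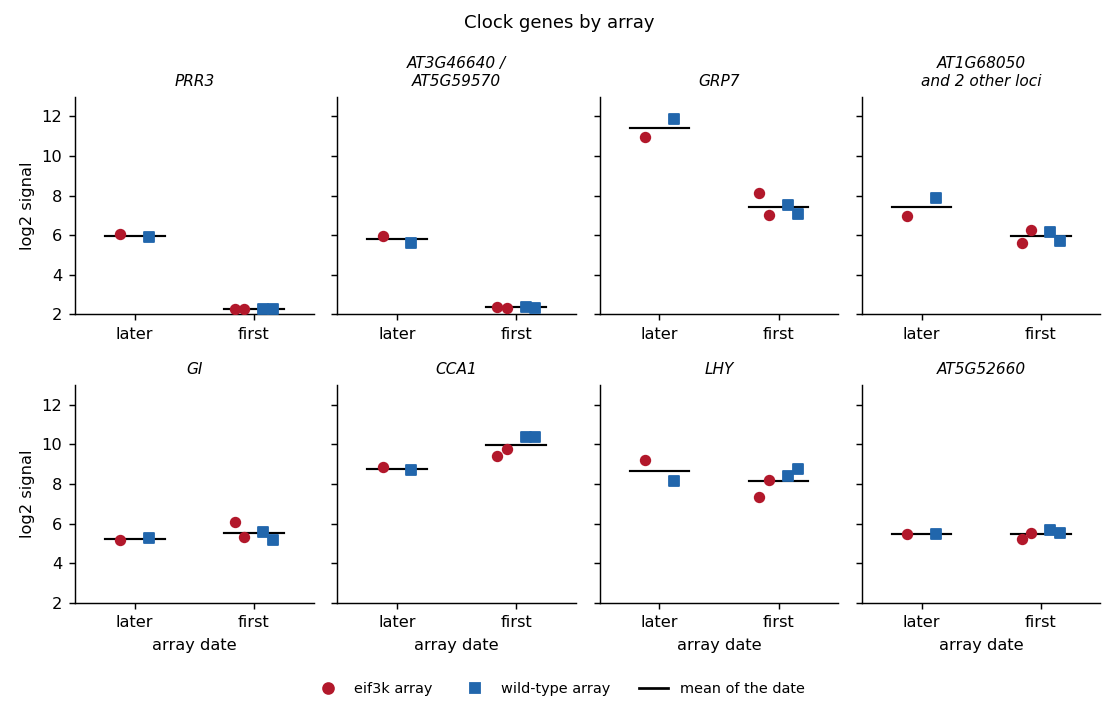
Log2 signal (y axis) of the 8 matched clock probe sets on each array, later date left and first date right, with circles for eif3k, squares for wild-type and a line at the mean of each date. PRR3, the AT3G46640 and AT5G59570 set and GRP7 lie higher on the later date, CCA1 lies lower, and GI, LHY and AT5G52660 overlap between the dates.

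The other genes that passed the test with higher values on the later date have varied roles. PWD, the phosphoglucan water dikinase that prepares starch for breakdown, had 9.11 and 9.20 on the later date, against 7.08, 6.88, 6.78 and 6.67 on the first. It rose by 2.3 (standard error 0.12, limma adjusted p = 0.0366), or 4.93-fold. TMT1, a transporter that moves sugars into the vacuole, had 7.09 and 7.01 on the later date and 5.62 to 6.01 on the first, with a difference of 1.23 (adjusted p = 0.0425). EXLB1, an expansin-like protein of the cell wall, had 7.41 and 6.91 on the later date and 4.11 to 4.27 on the first, a difference of 2.96 (adjusted p = 0.0328). The serine carboxypeptidase-like gene scpl35 differed by 2.28 and the receptor-like kinase gene MOL1 by 1.35. In each of these genes both later arrays lay above all 4 first-date arrays, as in all higher calls.

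Most called genes have only a locus name in the tables used. AT2G23910 had 6.33 in eif3k and 5.70 in wild-type on the later date and 2.25 on all first-date arrays, with a difference of 3.76, and AT1G69890, likewise at the floor on the first date, differed by 1.93. AT3G23170 was at 2.59 on all first-date arrays and differed by 1.66, and these 3 differences are lower bounds. Their first-date SD was 0, so their p-values hold no first-date spread and may be too small. AT5G58570 differed by 3.55 and AT3G15630 by 3.18. AT1G48210 differed by 2.23, AT4G32340 by 1.86, AT5G11070 by 1.79 and AT3G25290 by 1.57. AT5G51570, AT2G28660, AT1G31550 and AT5G52190 differed by 1.13 to 1.46. All of these had limma adjusted p-values between 0.0153 and 0.0492. The 3 other named genes called higher lay past the 20 largest differences: AGL26 at 1.05, AT2G46490 at 1.04 and AT1G17665, at the floor on the first date, at 1.02.

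Of the lower calls, XTH32, an enzyme that cuts and rejoins xyloglucan in the cell wall, had 7.40 in eif3k and 7.15 in wild-type on the later date, against 9.27, 9.32, 9.07 and 9.24 on the first. It fell by 1.95 on the log2 scale (standard error 0.07, limma adjusted p = 0.0211), or 3.86-fold. The other 17 probe sets of the list of cell wall enzymes were not called, and the list's median was -0.01. ATERDJ2B, a J-domain protein of the endoplasmic reticulum, had 5.74 and 5.67 on the later date and 6.94 to 7.12 on the first, a difference of -1.33 (adjusted p = 0.0204). ATSBT5.2, a subtilisin-like protease, differed by -1.30.

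The largest lower calls with a name were loci without a further name here. AT1G73480 had 5.09 and 5.39 on the later date, against 7.80, 8.22, 8.08 and 8.23 on the first, a difference of -2.84. AT4G13800 differed by -2.50, AT1G13650 by -2.43, AT2G29300 by -1.81 and AT3G29760 by -1.51. AT1G44000 had 10.31 and 10.39 on the later date and 11.57 to 11.65 on the first, with a difference of -1.26, a narrow spread on both dates. AT5G59080 and AT2G40460 each differed by -1.07.

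**Figure D3:**
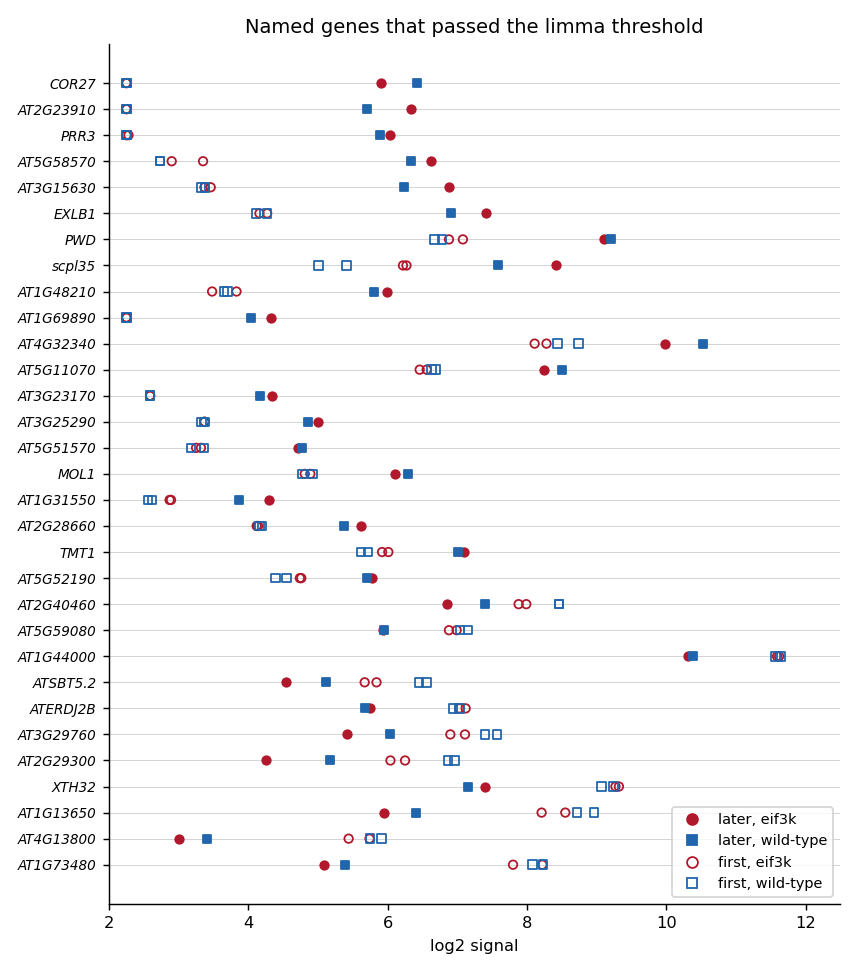
Log2 signal (x axis) on each of the 6 arrays for 31 of the 34 named genes that passed the limma threshold, the 20 of largest higher difference and the 11 lower ones, ordered by date difference, with filled symbols for the later date and open symbols for the first, circles for eif3k and squares for wild-type. In every row the 2 filled symbols lie on 1 side of the 4 open ones, which was also part of the rule that chose the rows. COR27 (3.91) is at the top and AT1G73480 (-2.84) at the bottom.

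Larger differences with a wider spread met the shared rule and missed the threshold over all probe sets. SAG29, a sucrose transporter first found in senescing leaves, had 2.55 in eif3k and 3.78 in wild-type on the later date, against 6.85 and 7.54 in eif3k and 6.63 and 6.92 in wild-type on the first. The difference was -3.82, or 14.1-fold, with a limma adjusted p of 0.113, and 0.016 among sets with a mean signal above 3. COR15A, a cold-induced protein that protects chloroplast membranes, had 2.90 and 4.32 on the later date, against 7.06, 7.40, 6.19 and 6.98 on the first, a difference of -3.3 (adjusted p = 0.17, and 0.0314 among the brighter sets). ELIP2, an early light-induced protein, had 5.86 on both later arrays and 7.63, 9.12, 8.16 and 9.84 on the first date, where the 4 arrays spanned over 2 units, and it missed the threshold in both fits (adjusted p = 0.264 and 0.0602). In all 3 genes the dates did not overlap, which the shared rule requires.

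Among the higher sets of this kind, chosen after their values were seen, DR4 (named drought-repressed) had 8.98 and 10.22 on the later date, against 6.97, 6.54, 5.94 and 4.95 on the first. AT4G16146 differed by 3.87, AT5G62360 by 3.3, AT2G21130 by 2.99 and AT1G26665 by 2.76. None of these 5 passed the test over all probe sets, and all 5 were called among sets with a mean signal above 3. Among the lower sets, AT2G40650, AT5G57345, PPT2 (a phosphoenolpyruvate translocator of plastids), AT3G01060, AT5G02280 and AT4G12980 had the lowest p-values of the named ones outside the plastid genome. Their differences lay between -1.68 and -1.10, with limma adjusted p-values of 0.0506 to 0.0723, and all 6 were called among the brighter sets.

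Members of the cold, drought and abscisic acid list differed in direction. Its 11 probe sets had a median difference of -0.54, with 0 called, 1 shared lower and 0 shared higher. The median rested on the later eif3k array: it was -0.94 in eif3k and -0.04 in wild-type. A fit without 1 later array takes the date difference from the genotype that keeps its later array, and so only repeats these values. COR15B, the close relative of COR15A, had 5.06 in eif3k and 7.08 in wild-type on the later date, against 4.80 to 5.63 on the first. RAB18, a dehydrin, had 5.72 and 7.27 on the later date and 7.45 to 8.66 on the first. COR15B thus differed by -0.16 in eif3k and 1.89 in wild-type, and RAB18 by -2.34 and -0.95.

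On the jasmonate synthesis list, LOX2, OPR3 and HPL1 had higher signals on both later arrays than on any first-date array. Its 15 loci matched 5 probe sets, of which 3, HPL1 among them, met the shared rule (60%, against 0.954% of all). The median difference was 1.51 and 0 were called. The same 3 were called among sets with a mean signal above 3, where 2.13% of all were called higher. LOX2, the chloroplast lipoxygenase at the head of the pathway, had 12.21 in eif3k and 11.84 in wild-type on the later date, against 10.66 and 10.84 in eif3k and 9.13 and 9.51 in wild-type on the first. The difference was 1.99 (limma adjusted p = 0.141, and 0.0244 among the brighter sets). OPR3, the reductase of the jasmonate precursor, had 8.46 and 8.02 on the later date and 7.19, 6.94, 6.49 and 6.32 on the first, a difference of 1.51 (adjusted p = 0.06, and 0.0105 among the brighter sets). HPL1, a hydroperoxide lyase that draws on the same substrates and does not itself make jasmonate, had 6.66 and 6.62 on the later date and 3.57 to 4.81 on the first. OPCL1, a ligase of the later steps, differed by 0.04, and JMT, the methyltransferase of jasmonate, lay at or next to the floor on all 6 arrays.

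The jasmonate response list did not lie higher as a whole. Its 14 probe sets had a median of 0.06, and only LCR69, a small cysteine-rich protein of the defensin family, met the shared rule. LCR69 had 11.58 and 11.63 on the later date, against 9.82, 9.65, 9.27 and 9.18 on the first, a difference of 2.12 (limma adjusted p = 0.06, and 0.00738 among the brighter sets). The defensin gene PDF1.2b had 6.65 on the later eif3k array and 2.36 on the later wild-type array, against 2.25 to 2.3 on the first date, so its signal was high on 1 array. PR4, a chitin-binding defence protein, had 9.24 on the later eif3k array, 5.89 on the later wild-type array and 4.43 to 6.16 on the first date. PR1, the salicylate marker, had 4.45 in eif3k and 3.11 in wild-type on the later date, against 5.23 and 6.10 in eif3k and 4.56 and 4.33 in wild-type on the first.

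Genes of starch and carbon status had a median difference of 0.88 over 9 probe sets. Of these, 2 were shared higher (22.2%, against 0.954% of all), 0 shared lower and 0 called. DIN10, a raffinose synthase-like gene induced by darkness, had 11.69 in eif3k and 10.85 in wild-type on the later date, against 8.87, 9.54, 9.39 and 8.79 on the first. The difference was 2.12, or 4.35-fold (limma adjusted p = 0.146, and 0.0268 among the brighter sets). AT3G15450, listed with the same sugar-repressed genes, had 9.02 and 8.88 on the later date and 7.01 to 8.04 on the first. APL3, a subunit of the enzyme that commits glucose to starch, went the other way, at 4.89 and 4.97 on the later date and 5.61 to 6.12 on the first. Its difference was -0.95 (adjusted p = 0.13).

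Single members of other lists also met the shared rule. PDC2, a pyruvate decarboxylase listed with the hypoxia genes, had 8.48 and 7.98 on the later date and 5.89 to 6.42 on the first, a difference of 2.07 (limma adjusted p = 0.0979, and 0.0152 among the brighter sets), while the list's median was 0. A probe set shared by AT4G22870 and AT4G22880, loci listed in the anthocyanin pathway, had 4.23 and 4.25 on the later date and 5.35 to 6.66 on the first. FER4, a ferritin, had 8.95 in eif3k and 7.91 in wild-type on the later date, against 7.92 and 6.46 in eif3k and 5.93 and 6.38 in wild-type on the first, so the dates overlapped by 0.01. Heat shock, touch and wound, auxin response and endoplasmic reticulum chaperone genes had medians between -0.07 and 0, with 0 calls.

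Plastid-encoded transcripts had lower signals on the later date, with a lower difference in eif3k than in wild-type in 75 of 79 probe sets. The study states that its arrays favour polyadenylated mRNAs and that polyadenylation precedes degradation in organelles. These signals therefore need not follow the levels of plastid mRNA. Over those 79 probe sets the median signal was 6.47 on the later eif3k array and 8.96 on the later wild-type array, against 10.36 and 9.97 in eif3k and 10.55 and 10.05 in wild-type on the first date. The median date difference was -2.04, with -3.24 in eif3k and -0.78 in wild-type, against 0 over all probe sets. In 59 probe sets both later arrays lay below all first-date arrays, which held for 10.3% of all probe sets. Of the 79, 0 were called, against 0.11% of all called lower. Among the 72 with a mean signal above 3, 23 were called lower, against 1.46% of all such sets. The shared rule was met by 30 (38%, against 0.677% of all). These 30 make up 19.5% of the 154 shared lower sets, while plastid genes make up 0.347% of all probe sets. The interaction of date and genotype was called in 4 of the 79, all more negative in eif3k, against 0.211% of all probe sets called that way. With a filter at a mean signal above 3 it was called in 0. At an unadjusted p under 0.05 it reached 47 of the 79, or 59.5%, against 13.9% of all probe sets, and each of these tests rests on 1 later array per genotype. The later eif3k array, where the 25S rRNA control was also low, was at least 2-fold lower in 69 of the 79 and the later wild-type array in 30, against 509 and 372 of all 22746, and the part of that control in this result was not tested.

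Plastid genes differed widely among themselves. psbK and psbI, small subunits of photosystem II, had the lowest differences. psbK had 4.02 in eif3k and 5.03 in wild-type on the later date, against 9.15 and 9.59 in eif3k and 8.01 and 9.25 in wild-type on the first, a difference of -4.47 (limma adjusted p = 0.124, and 0.0176 among the brighter sets). psaA, a core protein of photosystem I, had 5.53 and 6.34 on the later date and 9.23 to 10.08 on the first. atpA, the α subunit of the ATP synthase, had 8.55 and 8.69 on the later date, against 11.46, 11.05, 11.54 and 11.03 on the first. Its difference of -2.65 was nearly the same in eif3k (-2.70) and wild-type (-2.60), and missed the threshold (adjusted p = 0.0632, and 0.00734 among the brighter sets). psbK, psbI, psaA and atpA were thus low on both later arrays.

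In other plastid genes the 2 later arrays disagreed. psbC, an inner antenna protein of photosystem II, had 6.22 in eif3k and 11.79 in wild-type on the later date, against 10.73 to 11.28 on the first. psbA, the D1 protein, differed by -3.24 in eif3k and 0.93 in wild-type. rbcL, the large subunit of Rubisco, differed by -3.63 in eif3k and -0.71 in wild-type. The differences of atpB and atpE, further subunits of the ATP synthase, lay between -0.62 and 0.07. By class the median difference ranged between -1.04 for psa genes and -2.41 for atp genes.

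Nuclear genes of the photosystems were set beside the plastid genes. The 12 matched probe sets of the light-harvesting and photosystem list had a median difference of -0.16, with 0 called and 0 shared. In 5 of the 12 both later arrays lay below all first-date arrays, against 10.3% of all probe sets, and in 0 both lay above, against 10.6%. LHCA4, an antenna protein of photosystem I, had 13.85 and 13.91 on the later date, against 14.59, 14.51, 14.68 and 14.57 on the first. It differed by -0.71 with a limma adjusted p of 0.0462, below the 2-fold criterion. For the 101 probe sets of nuclear genes for organellar ribosomal proteins the median was 0.

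**Figure D4:**
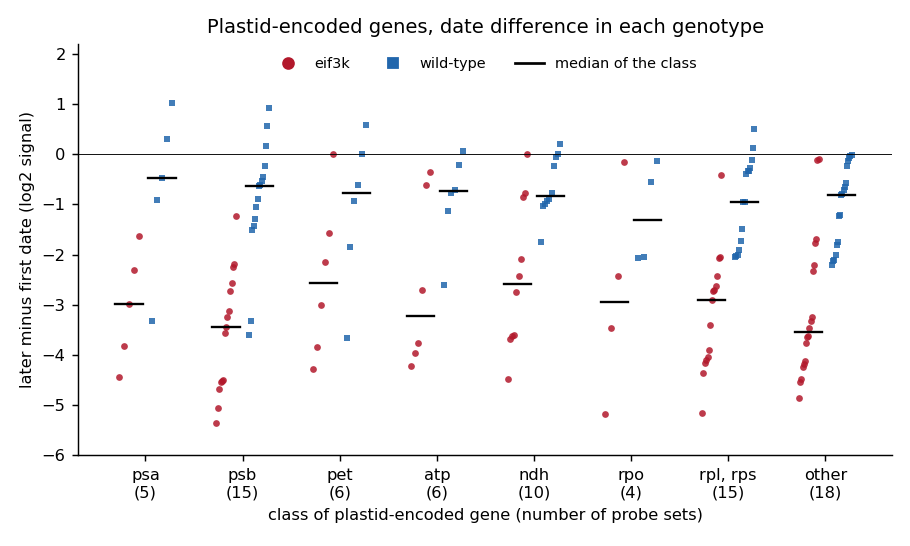
Date difference (later minus first, log2 signal, y axis) of 79 plastid-encoded probe sets by class of gene, with circles for eif3k, squares for wild-type and a line at the median of each class and genotype. The eif3k median lies below the wild-type median in every class, with values of -2.57 to -3.55 in eif3k and -0.47 to -1.30 in wild-type.

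Lists of growth-related genes had median differences below 0. Ribosome biogenesis genes had a median difference of -0.43 over 15 probe sets, with -1.14 in eif3k and 0 in wild-type, and 0 met the shared rule. NAP57, the pseudouridine synthase of ribosomal RNA, had 6.48 in eif3k and 7.35 in wild-type on the later date, against 8.42 and 7.98 in eif3k and 7.57 and 7.70 in wild-type on the first. For the 218 cytosolic ribosomal protein probe sets the median was -0.18, with -0.45 in eif3k and 0 in wild-type, and AT2G40010 alone was shared lower. For the 19 nucleosome histone probe sets it was -0.35, with -0.62 in eif3k and -0.22 in wild-type, and in 12 of them both later arrays lay below all first-date arrays. The 8 cell division probe sets had -0.37, with -0.51 in eif3k and -0.22 in wild-type, and 4 lay below, among them HIK, a kinesin of cell division, at 5.84 and 5.86 on the later date and 6.43 to 7.36 on the first. Over all probe sets, 10.3% had both later arrays below all first-date arrays. In the cytosolic ribosomal protein list 32 of 218 did, and 7 had both above. In the ribosome biogenesis list 4 of 15 did, and 1 had both above. None of these 4 lists had a call over all probe sets, where 0.224% were called higher and 0.11% lower, so few calls could be found. Among sets with a mean signal above 3, 1 of 194 cytosolic ribosomal protein sets was called lower, against 1.46% of all such sets.

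**Figure D5:**
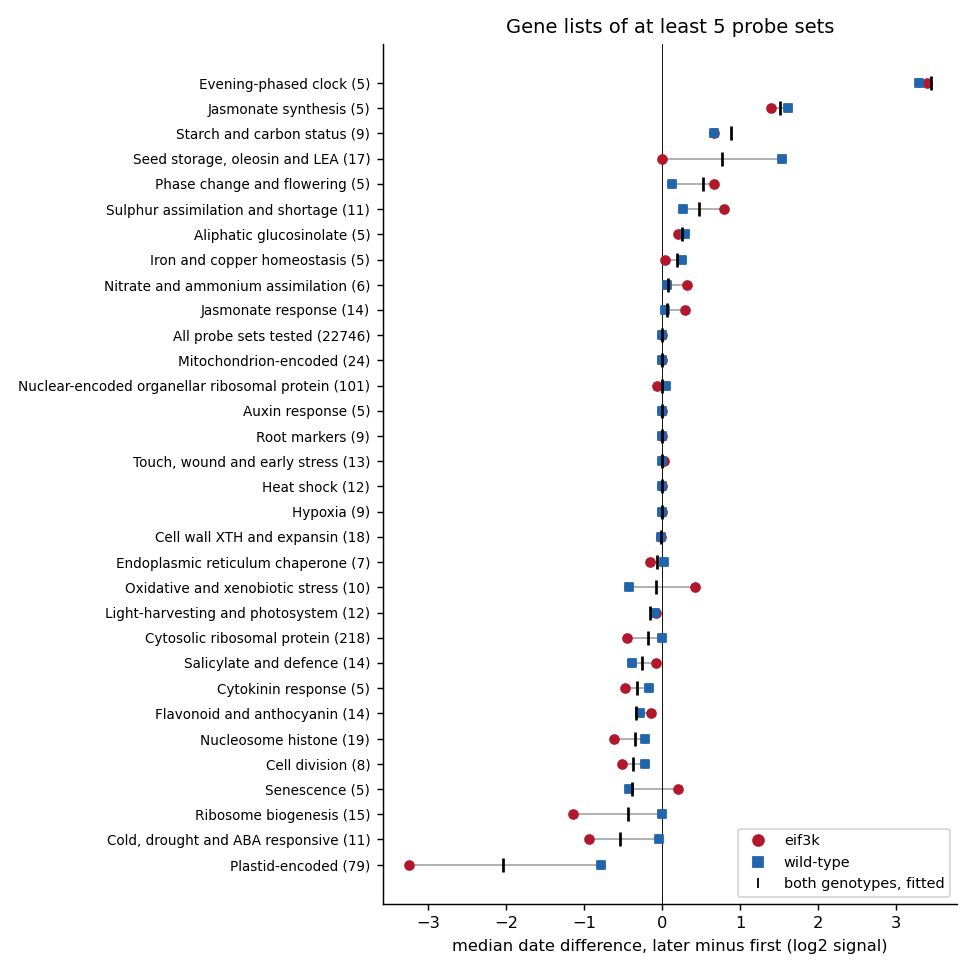
Median date difference (later minus first, log2 signal, x axis) of each gene list of at least 5 probe sets, with the number of probe sets in brackets, circles for eif3k, squares for wild-type and a bar for the fitted difference in both. The evening clock (3.45) and jasmonate synthesis (1.51) lists lie highest and plastid-encoded genes (-2.04) lowest, while the median of the seed list was 0 in eif3k and that of the ribosome biogenesis list 0 in wild-type.

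A last question was where the date difference itself differed between the genotypes, tested as an interaction with 1 later array per genotype, so that its spread comes from the first-date pairs alone. limma called 64 probe sets with a more positive date difference in eif3k and 48 with a more negative one, 0.281% and 0.211% of all. Of these 112, 70 had first-date arrays within 0.1 of each other, and 0 were called when only sets with a mean signal above 3 were fitted (1693 at an unadjusted p under 0.05). MGD2, a galactolipid synthase induced by phosphate shortage, had 8.02 on the later eif3k array, 2.95 on the later wild-type array and 2.94 to 3.52 on the first date. AT1G13750, from the same list, had 6.10 on the later eif3k array and 2.55 on the later wild-type array, against 2.68 to 3.12 on the first date, and was not called (interaction adjusted p by limma = 0.0853). AT1G08310 had 7.13 on the later eif3k array, 2.3 on the later wild-type array and 2.29 to 2.37 on the first date.

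Seed-type transcripts were high on the later wild-type array. ICL, the isocitrate lyase of the glyoxylate cycle that turns seed oil into sugar, had 2.41 in eif3k and 6.16 in wild-type on the later date, against 2.28 to 2.35 on the first. LEA18, a late embryogenesis gene, had 4.91 on the later wild-type array and 2.25 on the other 5. Of 17 seed list probe sets 2 were at least 2-fold higher in eif3k and 9 in wild-type, against 743 and 464 of all 22746. The log2 of their summed linear signal was 8.61 in eif3k and 9.91 in wild-type on the later date. On the first date it was 6.77 and 8.95 in eif3k and 6.74 and 6.82 in wild-type, so eif3k replicate 2 also stood high. The seed storage gene CRA1 had 7.43 and 8.93 on the later date, against 2.86 and 7.58 in eif3k and 2.62 and 2.98 in wild-type on the first, and the dates overlapped.

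QQS, EARLI1 and AZI1, chosen with earlier results of these data known, were also set between the dates. QQS, an orphan gene, had 8.46 in eif3k and 4.58 in wild-type on the later date, against 7.77 and 7.81 in eif3k and 4.41 and 3.60 in wild-type on the first. EARLI1, a lipid transfer protein, had 7.36 and 4.33 on the later date, against 9.25 and 10.96 in eif3k and 7.49 and 6.81 in wild-type on the first. Its difference was -2.74 in eif3k and -2.82 in wild-type, and it did not pass the test over all probe sets (limma adjusted p = 0.203, and 0.0391 among the brighter sets). AZI1, its close relative, had 10.14 and 5.87 on the later date and 7.12 to 10.60 on the first, with 0.36 in eif3k and -1.55 in wild-type.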

How the data were processed

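The deposited table holds, per the labels, log2 signals that the authors made with GCRMA (version not given in the sources used here). This method corrects each probe for its expected background and quantile-normalizes all arrays at once, so dim probe sets share a floor and a shift of all transcripts on 1 date would be removed. That the logs are to base 2 follows from this method and from the values. For its translation data the study used RMA instead. No probe set sequence and no coordinates were used.

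Of 22810 probe sets, 64 controls were left out. Names came from the platform annotation and, for 495 probe sets, from probe set identifiers paired with loci in the supplement. Another 548 name several genes and 8190 are unnamed here. All 6 value columns were used, and no array was a copy of another. Groups came from the labels.

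The date term was tested 2-sided in a limma fit (lmFit, eBayes; limma 3.58.1, R 4.3.3) that also held genotype. Benjamini-Hochberg adjustment covered all 22746 probe sets, and a call needed a 2-fold difference and an adjusted p under 0.05. The prior had 0.395 degrees of freedom. The interaction was fitted the same way. The scripts were tested on simulated data. Gene lists were described by counts and medians, with no set test, and 39 lists matched a probe set. Named genes were up to 20 higher and 20 lower of largest difference among the calls, the lower ones completed from the shared sets by smallest unadjusted p, up to 8 members of each list, all matched clock genes, the 6 largest interactions, and QQS, EARLI1, AZI1 and eIF3k. The members and lists were chosen with earlier results of these data known. Alternatives were filters on dim probe sets, variance priors, scaling, array weights, a replicate block, thresholds, and leaving out each array. The number of arrays limits the precision.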

Additional observations from a re-analysis of the deposited data

Results flagged for a closer look

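The interaction test (limma, adjusted p under 0.05 and at least 2-fold) called 65 probe sets that have 1 gene name. Only the 11 of them that were among the 229 probe sets picked by the naming rules are described here. With 1 later array per genotype, each of these values rests on 1 array, and the spread in the test comes from the first-date pairs alone. For LEA18, AtLEA4-1, AT3G53040 and MLS the 4 first-date arrays held 1 identical value, so the standard error was 0 to 2 decimals and any 2-fold departure of 1 array would be called. These 4 calls say nothing beyond that departure.

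In 5 genes the later wild-type array alone stood high, and the interaction, eif3k minus wild-type, was -3.78 for ICL, -2.66 for LEA18, -1.76 for AtLEA4-1, -1.54 for AT3G53040 and -1.37 for MLS, the malate synthase of the glyoxylate cycle. In 4 genes the later eif3k array alone stood high, with 5.36 for MGD2, 4.78 for AT1G08310, 4.27 for PDF1.2b and 1.04 for AGL24, a MADS-box gene of flowering. The plastid genes psbC, at -5.24, and psaJ, at -4.0, were low on the later eif3k array and higher on the later wild-type array than on the first date. When only probe sets with a mean signal above 3 were fitted, MGD2, AT1G08310, PDF1.2b, psbC and psaJ were not called, and the other 6 were too dim to enter that fit.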

How the results depend on the processing

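The shared 2-fold counts moved little with a filter, scaling or the loss of 1 first-date array, but 1.5-fold in place of 2-fold gave 612 higher and 518 lower probe sets and 4-fold gave 42 and 33. The limma counts, 51 higher and 25 lower, moved with most settings. Filters gave 258 and 212 (mean signal above the median) and 280 and 192 (above 3), and 280 and 194 above 3 with an intensity trend. A trend with a robust prior gave 4 and 0. Leaving genotype out gave 87 and 42, 4 groups 166 and 89, median centring 90 and 69, and array weights 21 and 8. The replicate block gave 397 and 274, with an estimated correlation of -0.797: with the date in the model the residuals of the 2 later arrays are equal and opposite by construction, and the dates share no replicate number. The eif3k date contrast alone gave 142 and 59, and the wild-type contrast alone 88 higher. No fold criterion gave 91 and 65, and an adjusted p under 0.1 gave 119 and 64. Leaving out each array gave 0 to 141 higher and 0 to 59 lower.

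The interaction counts, 64 more positive and 48 more negative in eif3k, became 0 and 0 above the median and, in a filter chosen after seeing the data, above 3. They were 39 and 26 after centring, and 459 and 375 with no fold criterion. The 100 named probe sets followed were those named by a rule other than list membership, or with at least a 2-fold date difference. Many were thus picked on these same values, so a kept sign was partly fixed in advance. Of the 100, 92 kept their sign under median centring, repeated quantile normalization, an intensity trend and the loss of each array. Of 32 called ones 30 stayed called under the first 3 of these, and with the trend above 3 where they entered it, but 0 in every fit without 1 array. They were not followed one by one under the robust prior, which kept 4 of all 76 calls. Leaving out each array in turn, the difference ranged from -0.42 to 1.43 for LHY, from -0.15 to 0.08 for AT5G52660, from -1.55 to 0.35 for AZI1, from -0.11 to 0.81 for eIF3k, from -0.16 to 3.16 for AT1G13750, from -0.48 to 4.89 for MGD2, from -2.98 to 1.02 for psaJ and from -4.68 to 0.56 for psbC. Without 1 later array the fit takes the date difference from the other genotype alone. The ends of these gene ranges thus repeat, to rounding, the differences within each genotype. The medians ranged from -1.14 to 0.01 for ribosome biogenesis genes and from -0.55 to 0.19 for senescence genes. Unless stated, the cause was not tested.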
